A study of Mus musculus with 2 samples.

Results

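The insulin-like growth factor (IGF) ligands, receptors and binding proteins were compared between hormone-treated and untreated mouse urogenital sinus mesenchyme (UGM) cells. The 10 genes were chosen by name, with earlier results of these data known, out of 18193 genes with a probe set naming them alone. They are the ligands Igf1 and Igf2, the receptors Igf1r and Igf2r, and the binding proteins Igfbp2 to Igfbp7. UGM is the fetal stroma around the urogenital sinus, the epithelial tube from which the prostate buds. Both cultures held male C57BL/6 cells labelled day 16, in RPMI with 5% charcoal-stripped (steroid-depleted) serum and the antibiotic Plasmocin at 5 µg/ml. One received testosterone (12 nM) and estradiol-17β (120 pM), here T+E2, and the other no hormone. With 1 array per culture, no replicate check and no p-value are possible, and effects of the hormones cannot be told apart from any other difference between the 2 cultures. The sample titles read 24 h, but every other label gives a treatment of 72 h, and the labels also disagree on how dense each culture was.

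IGF1 and IGF2 are secreted growth factors that signal through the IGF1 receptor, a tyrosine kinase that drives growth and survival through PI3K, Akt and MAP kinases. The IGF2 receptor, also the cation-independent mannose 6-phosphate receptor, has no kinase and carries IGF2 to lysosomes. In the mouse Igf2 is expressed from the paternal and Igf2r from the maternal allele. IGF binding proteins hold the ligands outside the cell, which can block or prolong their action, and proteases release the ligand by cutting them. In the prostate, stromal cells are a known source of IGF1 for the epithelium.

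Values are GCRMA intensities, given linearly or as log2. A gene was measured when at least 1 array reached a log2 of 5 (intensity 32), values under this floor were set to it, and each difference is T+E2 minus untreated. Of 10267 measured genes, 4.96% were 2-fold or more higher with T+E2 and 4.01% 2-fold or more lower, and the median difference was 0.07 (log2, interquartile range -0.32 to 0.45). The 18 hybridization spikes differed by -0.25 to 0.09. Mesenchymal markers were strong on both arrays, with Vim at a log2 level of 15.23 with T+E2 and 15.13 untreated and Col1a1 at 15.19 and 14.93. Fgf10, Hoxa13, Hoxd13 and Thy1, which also belong to the mesenchymal list, lay under the floor on both arrays. Of 11 epithelial markers, 9 were under the floor, among them Epcam and Krt5, Krt8, Krt14, Krt18 and Krt19. The summed intensity of the epithelial list was 583 with T+E2 and 337 untreated, mostly from Trp63 and Cdh1, and Cdh1 stood at a log2 of 7.57 and 5.37. Of the leukocyte list only Lyz2 was measured, at 8.53 with T+E2 and 10.06 untreated, and Ptprc, Cd68, Adgre1 and Csf1r were under the floor. The part of these differences in the results below was not tested. In such bulk RNA, fewer cells of a type and less RNA per cell cannot be told apart.

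Of the 10 IGF genes, 8 were measured. Of these 8, Igf1r and Igf2 were past 2-fold on the high side (2 of 8, against 4.96% of all measured genes). Igfbp3 was past it on the low side (1 of 8, against 4.01%), and the other 5 fell short of 2-fold. The median difference of the 8 was 0.34, against 0.07 over all measured genes. Both ligands and both receptors lay above 0, while the 4 measured binding proteins spread from -1.05 (Igfbp3) to 0.26 (Igfbp7), with 2 on each side. Across all measured genes 55.8% lay above 0.

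**Figure D1:**
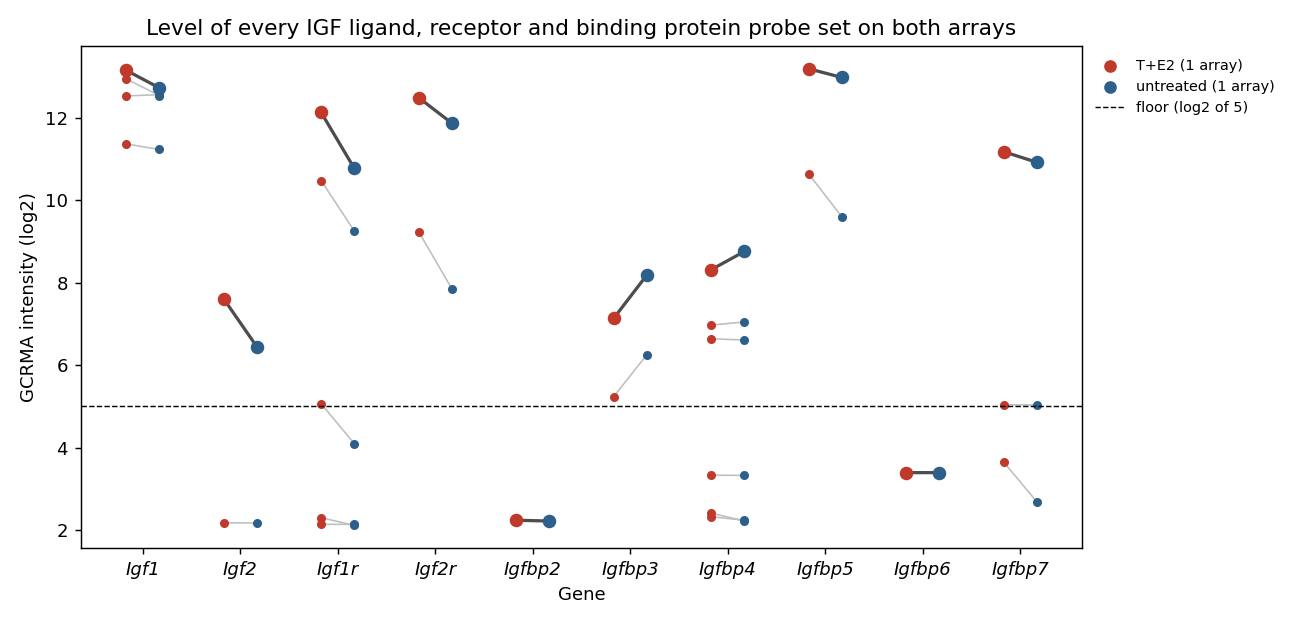
Log2 GCRMA intensity (vertical axis) of every probe set that names 1 IGF gene alone, with the T+E2 array in red and the untreated array in blue, joined by a line, and the floor as a dashed line. Large points are the probe set that gives the gene's value. Igf1, Igfbp5 and Igf2r had bright probe sets on both arrays, and Igfbp2 and Igfbp6 stayed under the floor on both. Heights of different probe sets are not comparable amounts of RNA.

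The ligand gene Igf1 was bright and differed little. Its brightest probe set, 1434413_at, read 9089 with T+E2 and 6769 untreated, a 1.34-fold difference (0.43). Its other probe sets gave 0.40, 0.13 and -0.03, so the 4 probe sets of Igf1 did not all lie on the same side. Among measured genes, 26.1% were at least as far above 0 as Igf1. Genes in the same decile of genomic span (the length from first to last base) had a median of 0.38, close to the 0.43 of Igf1 (span 78.8 kb).

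The second ligand gene, Igf2, was read by 1 probe set of 2. Probe set 1448152_at stood at 195 with T+E2 and 87.4 untreated, a 2.24-fold difference (1.16), and 3.16% of measured genes were at least as far above 0. The other, 1415931_at, lay at background on both arrays (4.54 and 4.51). With both averaged, Igf2 stood at 0.58, under 2-fold. The measured probe set was dim. In its decile of genes by level, differences had an SD of 0.79, and 9.93% of genes were at least 2-fold higher. Igf2 did not follow the span trend: its span decile had a median of -0.03, and with that trend removed Igf2 stood at 1.22.

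The receptor gene Igf1r differed most among the 8 gene values. Probe set 1428967_at read 4476 with T+E2 and 1748 untreated, a 2.56-fold difference (1.36), and 176 of 10267 measured genes (1.71%) were at least as far above 0. A second bright probe set, 1452982_at, read 1424 with T+E2 and 610.1 untreated (1.22). Another, 1426565_at, came barely over the floor with T+E2 (33.5) and was under it untreated (17.1). The floor thus reduced its difference to 0.07, against 0.97 without a floor. The remaining 2 stayed at background. In the decile of genes with levels like Igf1r, 1.85% were at least 2-fold higher, with an SD of 0.51. Igf1r spans 281 kb, in the longest decile of genes, where the median difference was 0.55 and 18.0% were at least 2-fold higher. With the span trend removed Igf1r stood at 0.77, and with the mean of its 3 measured probe sets at 0.88, both under 2-fold. That mean includes the 0.07 of 1426565_at, which the floor had reduced, so it is no sign that the probe sets disagreed.

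The gene of the other receptor, Igf2r, was higher on both measured probe sets, by unequal amounts. The brighter one, 1424111_at, read 5741 with T+E2 and 3740.4 untreated, a 1.53-fold difference (0.62), and 15.6% of measured genes were at least as far above 0. The dimmer one, 1424112_at, read 605 with T+E2 and 231 untreated, a 2.61-fold difference (1.39). At a 1.5-fold limit, passed upward by 17.1% of measured genes and downward by 14.1%, Igf2r joined Igf1r and Igf2. The mean of both probe sets was 1.002, just past 2-fold, whereas with the span trend removed the brighter probe set stood at 0.27. The SD between the probe sets of Igf2r was 0.54, against a median of 0.22 over 4537 genes with more than 1 measured probe set. Airn, the imprinted antisense RNA that overlaps Igf2r and silences its paternal copy, was looked at after its values were seen. Its brightest probe set, 1451634_at, read 789 with T+E2 and 2249.8 untreated, 2.85-fold lower with T+E2 (-1.51). The other 3 measured probe sets of Airn gave -2.15, -0.83 and -0.45, all below 0. One probe set that names both Airn and Igf2r lay at background on both arrays.

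Among the binding proteins Igfbp3 differed most, and Igfbp4 also lay below 0. IGFBP3 is the main carrier of IGFs in blood and inhibits growth in many cell types. Probe set 1423062_at read 141 with T+E2 and 291 untreated, 2.07-fold lower with T+E2 (-1.05), and 350 of 10267 measured genes (3.41%) were at least as far below 0. The second, 1458268_s_at, read 37.8 with T+E2 and 76.3 untreated (-1.01), and the SD between both was 0.02. The suffix _s_at marks probe sets whose probes may also match other transcripts. The levels were dim, in a decile of genes where 7.79% were at least 2-fold lower. With the span trend removed Igfbp3 stood at -0.92, just under 2-fold.

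Igfbp4, whose product mostly inhibits IGF action until PAPP-A cuts it, was 1.36-fold lower with T+E2 on its brightest probe set (319 with T+E2, 433 untreated, -0.44). Its other measured probe sets gave -0.08 (1423756_s_at, of the _s_at kind) and 0.03 (1423757_x_at). The direction was thus not shared by all 3, and their mean was -0.16. Igfbp5, whose product binds matrix, stood at 9330.2 with T+E2 and 8066 untreated on its brighter probe set (0.21), which is of the _s_at kind. Its dimmer probe set, 1422313_a_at, read 1595 with T+E2 and 776 untreated, 2.06-fold higher (1.04). The SD between these 2 was 0.59. Igfbp7, a distant relative that binds IGFs weakly, stood at 2315 with T+E2 and 1938 untreated (0.26), beside a median of 0.26 for genes of similar span. Igfbp2 (4.73 with T+E2, 4.66 untreated) and Igfbp6, whose product prefers IGF2 (10.5 on both arrays), each had 1 probe set, under the floor, so no difference is given for them.

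**Figure D2:**
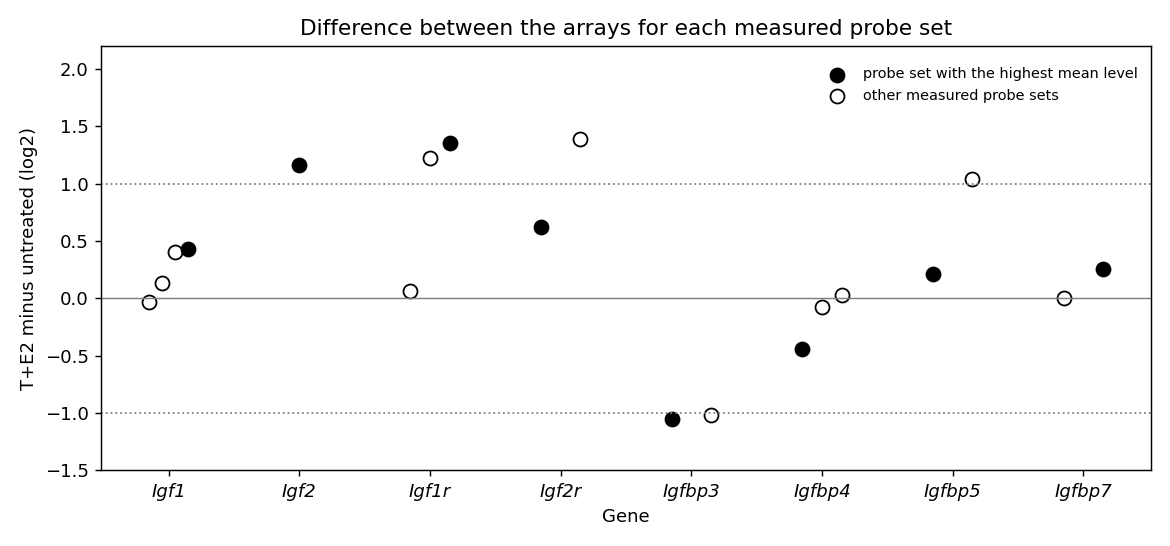
Log2 difference, T+E2 minus untreated (vertical axis), of each of the 19 measured probe sets of 8 IGF genes (horizontal axis), with dotted lines at 2-fold. Filled points are the brightest probe set of a gene and open points the others. Both Igfbp3 points lie near -1, both bright Igf1r points above 1, and Igf2r and Igfbp5 each have 1 point above 1 and 1 well below it.

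Of the 19 measured probe sets of the 8 genes, 5 were at least 2-fold higher (26.3% of them, against 6.28% of all 17674 measured probe sets) and 2 were at least 2-fold lower (against 5.49%). The 5 belonged to 4 genes, Igf2, Igf1r (2 of them), Igf2r and Igfbp5, and probe sets of a gene share their transcript. For Igf2r and Igfbp5 it was the dimmer probe set that passed 2-fold. The same order was common on these arrays: in 709 of 914 genes (77.6%) whose dimmest or brightest measured probe set was at least 2-fold different, the dimmest lay farther from 0.

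Ratios within an array do not depend on a scaling factor common to its probe sets. The ratio of the Igf1r to the Igfbp3 reading was 5.30-fold higher with T+E2, that of Igf2 to Igfbp3 4.63-fold, and that of Igf1 to Igfbp3 2.78-fold. The ratio of Igfbp3 to Igfbp5 was lower by a log2 difference of -1.26. The ratio of Igf1 to Igf1r, ligand to its receptor, differed by -0.93. Of the 28 pairs among the 8 genes, 11 (39.3%) changed their ratio at least 2-fold, against 23.1% of all pairs of measured genes. Pairs share genes, and these shares are descriptions. Every pair of Igfbp3 except that with Igfbp4 was among the 11. The ratio of Igf1r to Igfbp3 sets the highest of the 8 gene values against the lowest. These ratios keep the span trend, and with it removed Igf1r stood at 0.77 and Igfbp3 at -0.92.

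**Figure D3:**
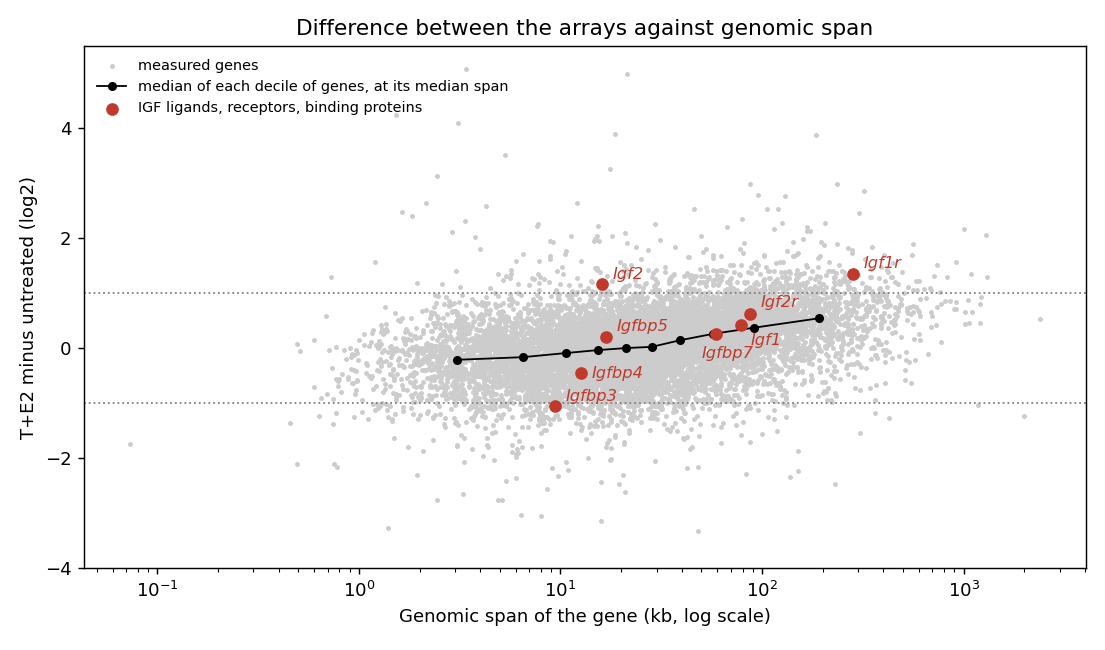
Log2 difference, T+E2 minus untreated (vertical axis), against genomic span in kb (horizontal log axis) for measured genes with a span (grey), the median of each decile of genes (black line) and the 8 IGF genes (red). The medians run from -0.21 in the shortest decile to 0.55 in the longest. Igf1 and Igfbp7 lie close to the line, Igf2 and Igf1r well above it and Igfbp3 well below it.

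The promoters of the 3 genes past 2-fold are shown because the treatment acts through DNA-binding receptors. The sequences are the 250 bases upstream of a RefSeq start site (GRCm38.p6), written along the gene's strand from 5′ to 3′. All 10 genes matched, with 14 start sites. Capitals mark matches, on either strand, to the half-site of the androgen and glucocorticoid receptors (AGAACA), the estrogen receptor half-site (GGTCA), AP-1 (TGANTCA), the Sp1 GC box (GGGCGG) or the TATA box (TATAAA). Igf2 has 4 start sites, and the most upstream one is shown because it alone held the androgen half-site among them. Of the sites not shown, the second held no match. The third held a GC box only, and the fourth an estrogen half-site and GC boxes. The array does not tell the start sites apart.
Igf1r, chr7:67952007-67952256, plus strand: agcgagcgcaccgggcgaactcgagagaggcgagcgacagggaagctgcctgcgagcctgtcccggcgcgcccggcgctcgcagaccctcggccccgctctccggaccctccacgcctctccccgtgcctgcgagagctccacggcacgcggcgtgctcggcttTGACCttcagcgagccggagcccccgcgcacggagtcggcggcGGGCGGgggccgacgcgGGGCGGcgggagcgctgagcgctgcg
Igf2, first start site, chr7:142666817-142667066, minus strand: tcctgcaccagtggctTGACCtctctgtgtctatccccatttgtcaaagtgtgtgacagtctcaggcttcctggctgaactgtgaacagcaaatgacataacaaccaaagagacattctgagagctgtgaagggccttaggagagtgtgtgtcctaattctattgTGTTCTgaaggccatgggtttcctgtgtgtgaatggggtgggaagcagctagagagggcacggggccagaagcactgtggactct
Igfbp3, chr11:7213924-7214173, minus strand: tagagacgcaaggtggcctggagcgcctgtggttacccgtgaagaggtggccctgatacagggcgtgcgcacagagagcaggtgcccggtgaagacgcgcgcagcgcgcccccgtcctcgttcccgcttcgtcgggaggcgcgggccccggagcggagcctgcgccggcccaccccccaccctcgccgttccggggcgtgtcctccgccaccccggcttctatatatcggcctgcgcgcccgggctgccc
The Igf1r window held 1 estrogen half-site and 2 GC boxes and was 77.6% G or C, against a median of 52.4% over all promoters. The Igf2 window shown, which was picked for its androgen half-site, held 1 half-site of each receptor kind. The Igfbp3 window held no exact match to any of the 5 motifs. No window of the 10 genes held the full palindromic element of the androgen and glucocorticoid receptors (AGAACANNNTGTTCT) or of the estrogen receptor (GGTCANNNTGACC), which 0.00913% and 0.0639% of all 32851 windows held. The estrogen half-site was in 8 of the 14 windows, against 35.2% of all, and the androgen half-site in 2, against 16.1%. The GC box was in 6 of the 14, against 32.7%. AP-1 (Igf1 and Igfbp2) and the letters of the TATA box (Igfbp4 and Igfbp6) were each in 2 of the 14, against 6.75% and 12.4%. The TATA match of Igfbp4 lay 28 to 23 bases upstream, and that of Igfbp6 148 to 143 bases upstream on the opposite strand. Matches are descriptions of these letters and show no binding.

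Around the IGF genes, 64 further genes were listed by role. Of the 48 measured, 5 were past 2-fold on the high side (against 4.96% of all measured genes) and 0 on the low side (against 4.01%). Of the 48, 42 lay above 0 (55.8% of all measured genes did), and the median was 0.50, against 0.07. These genes are long (median span 54.3 kb, against 24.5 kb for all measured genes). With the span trend removed, a setting applied to these lists after their values were seen, 2 were past 2-fold upward (against 2.94% of all measured genes with a span), 36 lay above 0 (against 51.3%) and the median was 0.26, against 0.01. The insulin receptor gene Insr, the closest relative of Igf1r, stood at a log2 level of 10.63 with T+E2 and 9.74 untreated (0.88). Igfbp1, Igfals (the acid-labile subunit of the blood IGF complex), Insrr and Igfbpl1 were under the floor on both arrays.

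The list of proteases that cut IGF binding proteins, and their inhibitors, held 3 of those 5 (3 of 6 measured, against 4.96% of all). Pappa2, which encodes a pappalysin that cuts IGFBP3 and IGFBP5, stood at 6.61 with T+E2 and 5.20 untreated (1.41), near the floor. Pappa, whose product PAPP-A cuts IGFBP4, was at 6.37 with T+E2 and under the floor untreated, at least 2.58-fold higher. Adam12, a metalloprotease that cuts IGFBP3 and IGFBP5, was at 9.21 with T+E2 and 7.91 untreated (1.30), and its 2 measured probe sets lay above 0. The serine protease genes Htra1 (0.11) and Htra3 (0.63) lay between. Stc2, which encodes a PAPP-A inhibitor, stood at -0.39, while Stc1 and Adam28 were under the floor. Of the 6 measured genes of this list, 5 lay above 0 (against 55.8% of all), and the median was 0.96. Pappa, under the floor untreated, was measured only through the T+E2 array and could only come out above 0. It is nonetheless counted among the 3, and among those 5, past 2-fold. The 3 genes past 2-fold span 233 kb (Pappa), 249 kb (Pappa2) and 342 kb (Adam12), and with the span trend removed Pappa2 stood at 0.85, Pappa at 0.82 and Adam12 at 0.68. In that setting 0 of the 6 were past 2-fold upward (against 2.94% of all). Of the 6, 4 lay above 0 (against 51.3%), and the median was 0.63.

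Most genes downstream of the receptors lay less than 2-fold above 0. In the PI3K, Akt, mTOR and FoxO list 1 of 18 measured genes was past 2-fold upward (against 4.96% of all) and 17 lay above 0 (against 55.8%), with a median of 0.53. One of the 17, Pik3cb, was under the floor untreated and could only come out above 0. With the span trend removed 13 of the 18 lay above 0, against 51.3% of all, with a median of 0.30. The 1 was Foxo1, a transcription factor that Akt keeps out of the nucleus, at 10.76 with T+E2 and 9.56 untreated (1.20, both measured probe sets above 0). With the span trend removed Foxo1 stood at 0.87. None of 11 measured receptor adaptor and feedback genes reached 2-fold, a limit passed by 4.96% of all measured genes upward and 4.01% downward. With so few genes and such low shares, a count of none says little about this list. The adaptor gene Gab1 (0.68) and the phosphatase gene Ptpn11 (0.57) differed most by gene value. The 3 measured probe sets of Ptpn11 spread from 0.57, on the brightest, to 2.09. The median of the list was 0.32, or 0.08 with the span trend removed. Irs1, the main IGF1 receptor substrate gene, stood at 0.30, and Irs2 was under the floor on both arrays. None of the 4 growth hormone axis genes reached 2-fold (against the same 4.96% and 4.01%), with Stat5b at 0.60 and Stat5a at 0.49. Of the 4, 3 lay above 0 (against 55.8% of all). The receptor gene Ghr lay below it (-0.11, all 3 measured probe sets below 0), at -0.68 with the span trend removed. Igf2bp1 (0.29) and Igf2bp3 (0.12), whose products bind Igf2 mRNA, and the small mannose 6-phosphate receptor gene M6pr (-0.47) lay between. H19, Igf2bp2 and Rps6kb1 are not analysed here.

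The CCN genes encode matrix signalling proteins with an IGFBP-like domain. All 5 measured members lay above 0 (against 55.8% of all measured genes), with a median of 0.89. Ccn3 was barely above 0 (0.006), and its other measured probe set lay at -0.02. Of the 5, 1 was past 2-fold (against 4.96%). This was Ccn1, at 13.53 with T+E2 and 12.13 untreated (1.41), whose 4 measured probe sets spread from -0.68 to 2.01, with 2 on each side of 0. Ccn2 stood at 0.97, just under 2-fold, with 1 measured probe set. Both genes are short, and with the span trend removed Ccn1 stood at 1.62 and Ccn2 at 1.17.

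**Figure D4:**
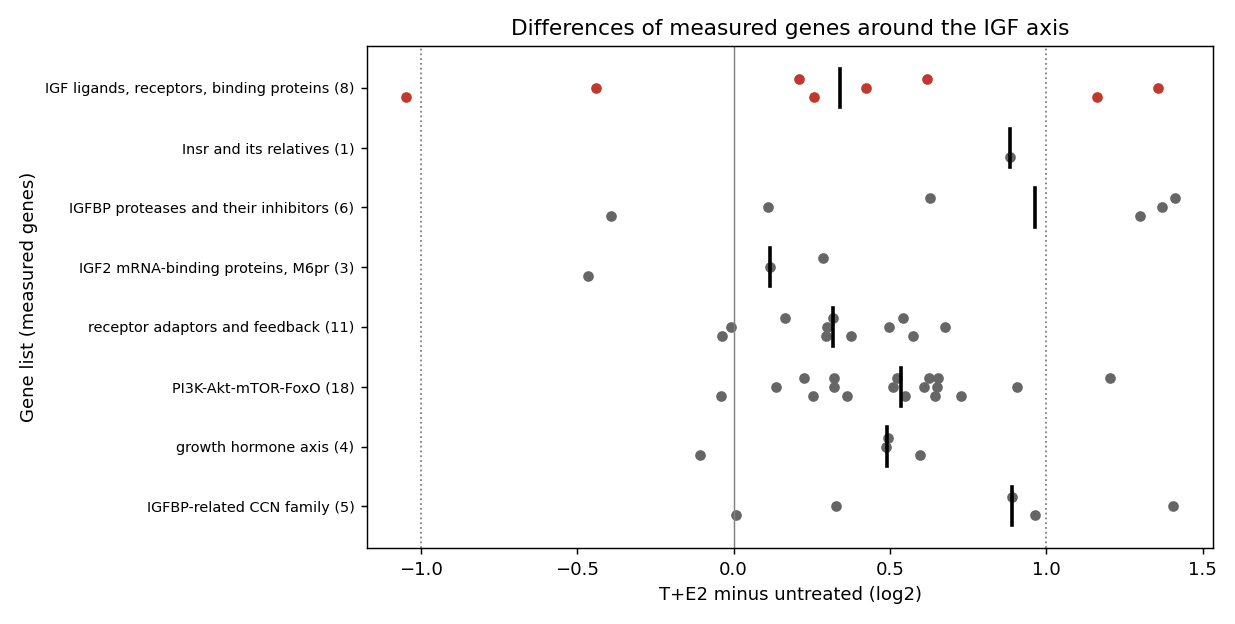
Log2 difference, T+E2 minus untreated (horizontal axis), of each measured gene in the IGF set (red) and 7 lists around it (grey), with the number measured in brackets, black bars for the median and dotted lines at 2-fold. The protease list has 3 genes above 1, the PI3K list and the CCN list 1 each, and Igfbp3 is the single point below -1.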

How the data were processed

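GCRMA, which corrects background by probe sequence, quantile-normalizes arrays and summarises each probe set, is the method given by the submitters' processing notes, without a version. The authors deposited linear intensity values for 45101 probe sets on 2 arrays. Quantile normalization gives both arrays like distributions, so a shift common to most genes would not be seen, and GCRMA draws dim probe sets together.

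Here log2 was taken, with a floor of 5. Probe sets were named from the platform annotation, with symbols updated through the RefSeq table of GRCm38.p6; 34945 named 1 gene. A gene's value came from its probe set with the highest mean log2. Trends were removed by lowess (statsmodels 0.14.6, fraction 0.3). The 10 genes, the lists and the alternatives were chosen with earlier results of these data known. All 10 genes are named, and from each list the genes past 2-fold (up to 4 per direction) or the 2 farthest from 0; others were added after their values were seen.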

Additional observations from a re-analysis of the deposited data

How the results depend on the processing

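Across 10 alternative settings the counts of IGF genes at least 2-fold higher (2) and lower (1) changed under 2 of them by more than 1.5 times. When every probe set of a gene was averaged, 1 gene was higher (Igf2r), against 2.53% of all measured genes. That mean includes probe sets at background on both arrays. With the span trend removed, 1 gene was higher (Igf2, against 2.94% of all) and 0 were lower (against 4.19%), and the median difference was 0.18, against 0.01 over all. Of the 48 listed genes around them, 5 were past 2-fold upward (against 4.96% of all measured genes). With the span trend removed, a setting added after seeing the data, 2 were (Ccn1 and Ccn2, against 2.94% of all). With the mean of measured probe sets the 2 higher genes were Igf2 and Igf2r, against 5.14% of all measured genes. In both kinds of mean, Igf1r included a probe set whose difference the floor had reduced. At a 1.5-fold threshold Igf2r joined, giving 3 higher, against 17.1% of measured genes, and Igfbp3 stayed the 1 lower, against 14.1%. None of the 8 differences changed sign under these settings. Of 72 values for single genes, 53 moved by less than the SD of the spikes (0.12) and 19 by more. Many of the 53 could not move by more. The chosen probe sets of the 8 genes lay above a log2 of 6 on both arrays, so the floor settings left their differences unchanged. Probe sets naming several genes replaced none of them, and centring shifted each by only 0.07. The 19 moved when probe sets were averaged or a trend was removed, so the 53 are no measure of stability. Igf1r ranged from 0.53 to 1.36, Igf2 from 0.58 to 1.22 and Igfbp3 from -1.17 to -0.92. No paired analysis was possible because each group has 1 array. Signal over background limits Igf2 and Igfbp3, which were dim, and Igfbp2 and Igfbp6, which were not measured.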
